A study of Mus musculus with 2 samples.

Results

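The genes described here are 36 genes of the DNA double-strand break response, found by name in both expression tables among 23288 genes. They were taken as a list given by name, chosen with earlier results of these data known. All 36 had a mean level of at least 1 RPKM, the minimum set for a comparison. By role they fall into 14 genes of break sensing and signalling, 11 of end joining, 10 of homologous recombination and 1 translesion polymerase gene, Rev1. The samples were 1 Nedd4-/- and 1 Nedd4+/+ library of splenic B cells from fetal liver chimeras, of the strain background given as B6:129-backcrossed to B6. Both cultures were kept for 72 hours in LPS, a bacterial activator of B cells, and the cytokine IL-4, which together start class switching of the antibody genes to IgG1. The labels give neither the number of animals nor how many host cells the chimeras kept. RPKM is a read number scaled to transcript length and library size, so levels are scaled per length and can be set beside each other between genes. With 1 library per genotype there was no replicate check and no test of genotype, and every interval below is an exact Clopper-Pearson 95% interval that covers counting error only.

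Class switching proceeds through breaks that the deaminase AID starts in the switch regions of the antibody heavy chain locus. The breaks are bound by a sensor complex and signalled by the kinase ATM, which marks the chromatin around them so that ubiquitin ligases can recruit the Trp53bp1 protein. Classical end joining then seals most of the ends with the Ku heterodimer and DNA ligase IV. Alternative end joining uses PARP1, polymerase theta and ligase III. Homologous recombination copies an intact sister chromatid and works mainly in S and G2 phase, which dividing B cells pass through often.

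Nedd4, which encodes the ubiquitin ligase that the labels name as deleted, stood at 1.95 RPKM in the Nedd4-/- library, against 7.59 RPKM in the Nedd4+/+ library. Its log2 ratio was -1.54, on the scale of RPKM + 1 used for gene levels throughout, with an interval of -2.14 to -1.79 without pseudocount. All differences below lie between libraries that also differ in sex-linked RNA, with Xist at 0.0958 RPKM in Nedd4-/- and 23.7 RPKM in Nedd4+/+ cells, and Ddx3y at 10.6 and 2.63 RPKM. With 1 library per genotype the part of this difference in any other cannot be told apart from that of genotype. The 5 B cell markers summed to 369 RPKM in Nedd4-/- and 453 RPKM in Nedd4+/+ cells, and went both ways: 1 was higher in the Nedd4-/- library, Cd79a at 15.6 RPKM against 13.9 RPKM in Nedd4+/+ cells, and 4 were lower, Pax5 furthest at 24.5 RPKM against 35.6 RPKM. None of 6 T cell, 7 myeloid or 3 natural killer cell markers reached a mean of 1 RPKM, and their summed levels were 1.64, 3.27 and 0.585 RPKM in Nedd4-/- and 0.705, 1.72 and 0.186 RPKM in Nedd4+/+ cells. The 4 erythroid markers summed to 2.01 RPKM in Nedd4-/- and 2.61 RPKM in Nedd4+/+ cells, and 1 of them passed that level, Hba-a1 at 0.897 and 1.74 RPKM. Background was also higher in Nedd4-/- cells. The kb upstream of genes under 0.2 RPKM, free of annotated genes, had a median of 0.103 RPKM there and 0.0433 RPKM in Nedd4+/+ cells. The part of background in these low marker sums was not tested. The 4 plasmablast markers were lower in the Nedd4-/- library, with a summed level of 125 RPKM against 215 RPKM in Nedd4+/+ cells. Of the 9405 genes whose mean reached 1 RPKM, 92.7% were lower there too, so a lower marker is not by itself particular. The median log2 ratio of the 4 plasmablast markers was -0.78, beside -0.31 over all those genes. The part of the plasmablast marker difference in the results below was not tested.

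Promoter sequences are shown for members that hold a motif of the E2F factors, which switch on genes of S phase. The 250 bases before the gene start were searched for TTTCCCGC and TTTGGCGC on both strands, in the RefSeq promoter table of build GRCm38.p6, where 29 of the 36 members were found. A member was counted once if any of its promoters held a motif, whereas the shares of all promoters count each promoter. All promoters were also not limited to expressed genes, whereas every member had a mean of at least 1 RPKM. The 2 kinds of share are therefore not like for like. TTTCCCGC was present before 5 of these 29 genes (17.2%), Bard1, Brca2, Chek2, Mdc1 and Xrcc6, and in 0.895% of all 32851 promoters in the table. TTTGGCGC was present before none of the 29 and in 0.417% of all promoters. The bases printed here carry the motif in capitals, which read GCGGGAAA where it lies on the opposite strand, and leave out bases that an annotated exon covers.
Bard1, minus strand, chr1:71103147-71103222: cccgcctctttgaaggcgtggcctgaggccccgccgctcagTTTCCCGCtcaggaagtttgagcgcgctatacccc
Chek2, plus strand, chr5:110839778-110839978: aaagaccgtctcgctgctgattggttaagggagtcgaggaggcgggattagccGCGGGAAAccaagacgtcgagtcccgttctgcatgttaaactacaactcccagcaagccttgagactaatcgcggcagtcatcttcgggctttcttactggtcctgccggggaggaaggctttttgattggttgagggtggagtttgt
Brca2, plus strand, chr5:150522371-150522620: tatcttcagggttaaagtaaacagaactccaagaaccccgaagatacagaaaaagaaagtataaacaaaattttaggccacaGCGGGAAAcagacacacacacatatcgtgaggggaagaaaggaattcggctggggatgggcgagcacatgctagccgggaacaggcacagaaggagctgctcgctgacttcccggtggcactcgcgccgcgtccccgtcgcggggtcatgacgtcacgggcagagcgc
Mdc1, plus strand, chr17:35841248-35841497: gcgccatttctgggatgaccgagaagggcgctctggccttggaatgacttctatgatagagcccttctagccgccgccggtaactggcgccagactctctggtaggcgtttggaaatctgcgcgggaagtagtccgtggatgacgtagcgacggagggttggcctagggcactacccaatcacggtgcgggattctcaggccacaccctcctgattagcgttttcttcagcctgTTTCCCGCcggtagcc
The motif began 209 bases before the start of Bard1, 152 before Chek2, 168 before Brca2 and 16 before Mdc1. Before Xrcc6 the motif lies in bases that annotated exons cover, and that window is not shown. The GC box GGGCGG was present before 19 of the 29 members (65.5%) and in 32.7% of all promoters, the ETS motif CCGGAAG before 5 (17.2%) and in 6.91%, and the CCAAT box before 12 (41.4%) and in 33.8%. These matches describe letters and not binding.

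The break response genes were expressed at middle levels in both genotypes. Their median level was 4.82 RPKM in Nedd4-/- and 6.41 RPKM in Nedd4+/+ cells, against 4.28 and 5.69 RPKM over the 9405 genes whose mean reached 1 RPKM. Parp1, which encodes the sensor of strand breaks that builds poly(ADP-ribose), was the highest of the 36 in either library at 29.8 RPKM in Nedd4-/- and 45.1 RPKM in Nedd4+/+ cells. Nhej1, a scaffold of the ligation step, was the lowest at 0.953 RPKM in Nedd4-/- and 1.31 RPKM in Nedd4+/+ cells. Atm, Rif1 and Xrcc6 followed Parp1 in both libraries, with Atm above Rif1 in Nedd4-/- and below it in Nedd4+/+ cells.

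**Figure D1:**
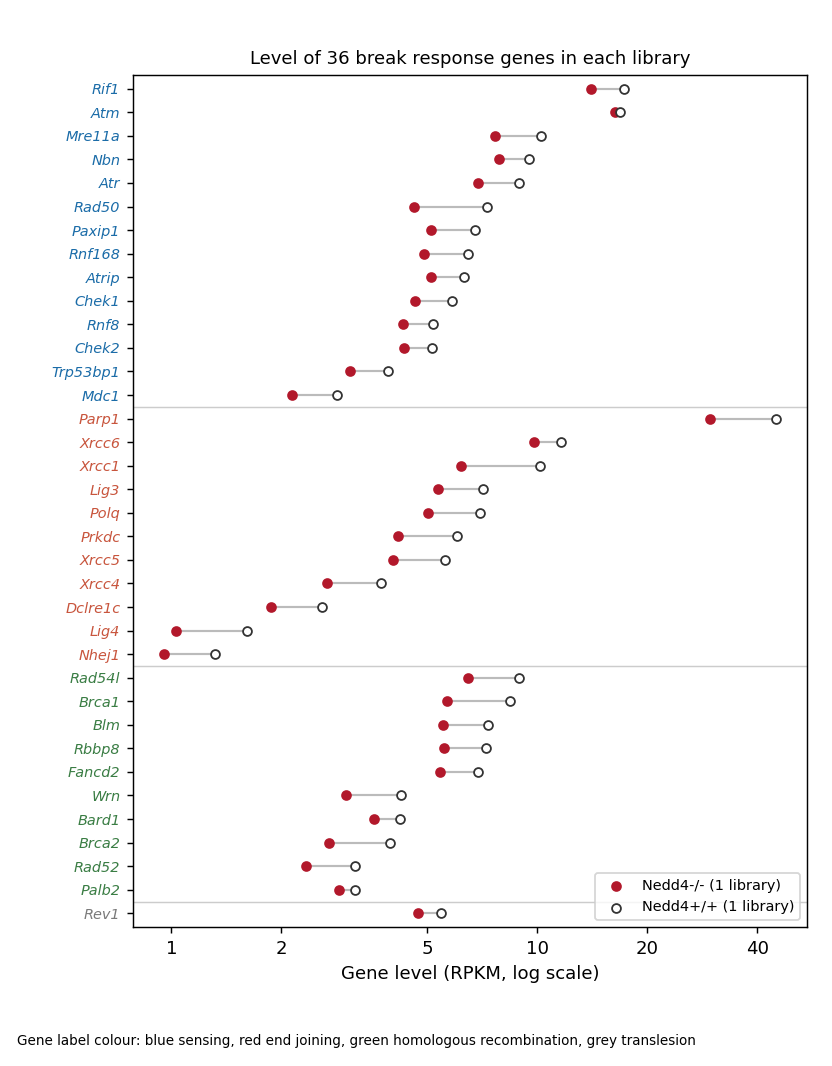
Gene level in RPKM on a log axis for each of the 36 members, with filled points for the Nedd4-/- and open points for the Nedd4+/+ library (1 library each, so no error bar). All 36 filled points lie left of their open points, from Parp1 at 29.8 and 45.1 RPKM to Nhej1 at 0.953 and 1.31 RPKM, and the distance is smallest for Atm at 16.3 and 16.9 RPKM.

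All 36 members had a lower RPKM in the Nedd4-/- library, as did 92.7% of all 9405 genes. RPKM is relative to library size, so it cannot tell fewer cells of a type, less RNA per cell and library scaling apart. Summed over all 23288 genes, RPKM came to 116140 in Nedd4-/- and 149156 in Nedd4+/+ cells. The part of scaling in the lower levels was not tested. The members' median log2 ratio was -0.33, beside a median of -0.31 over all genes, and their levels in Nedd4-/- cells ran from 60.7% to 96.9% of those in Nedd4+/+ cells. None was at least 2-fold lower, a change that 1.15% of all genes showed, and none was at least 2-fold higher, as 0.138% of all genes were. Of the 36, 21 had a ratio under the all-gene median and 15 over it, where 50.0% of genes lie below by construction. Since the median of all genes differs from 0, a relative value here means a log2 ratio minus that median, and the members' relative values ran from -0.33 to 0.27. By relative value too none was 2-fold lower or higher, as 0.223% and 0.276% of all genes were. By the counting intervals 6 members lay wholly below the median ratio of all genes and 5 wholly above it. That is 6 of 36 beside 23.1% of all genes below, and 5 of 36 beside 18.7% above, so neither count of members stands above its background. The comparison of intervals used ratios without pseudocount, for which the median of all genes was -0.39. Where the minimum was set at 5 RPKM, 7 of 22 members lay below the median, so the count of members below it depends on the genes it is set against.

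The 3 functional groups overlapped widely. The sensing genes had a median log2 ratio of -0.28 with a range of -0.56 to -0.04, the end joining genes -0.37 with a range of -0.64 to -0.22, and the recombination genes -0.34 with a range of -0.50 to -0.11. Below the median of all genes were 5 of 14 sensing genes, 9 of 11 end joining genes and 7 of 10 recombination genes. Without pseudocount the counts were 5, 10 and 6. Summed over members, end joining genes held 70.9 RPKM in Nedd4-/- and 102 RPKM in Nedd4+/+ cells (69.5%). The sum for sensing genes was 91.0 RPKM in Nedd4-/- and 113 RPKM in Nedd4+/+ cells (80.8%), and that for recombination genes 43.1 and 57.7 RPKM (74.8%). Parp1 alone makes up a large part of the end joining sum. No test of a difference between the groups was made.

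**Figure D2:**
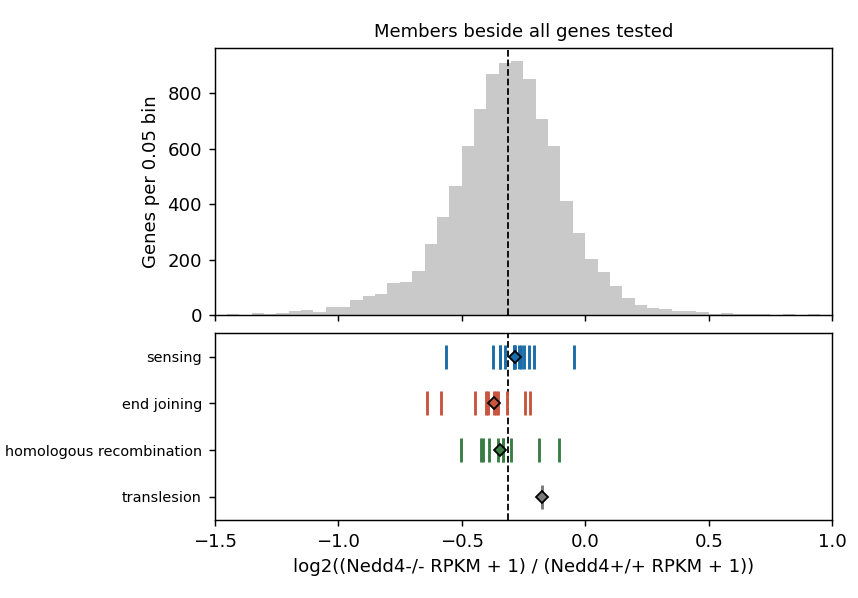
Upper panel, number of genes per bin of the log2 ratio of RPKM + 1 (Nedd4-/- over Nedd4+/+) for all genes whose mean reached 1 RPKM; lower panel, each member as a tick and each group's median as a diamond on the same axis. The dashed line is the median of all genes at -0.31, and the group medians of -0.28 (sensing), -0.37 (end joining) and -0.34 (homologous recombination) lie close to it; genes beyond the ends of the axis are not drawn.

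Among the sensing genes, the ATM kinase gene stood furthest above other genes. Atm, on chromosome 9, had 16.3 RPKM in Nedd4-/- and 16.9 RPKM in Nedd4+/+ cells, a log2 ratio of -0.04 and 96.9% of the level in Nedd4+/+ cells. Its counting interval of -0.10 to 0.01 lay wholly above the median ratio, and 90.0% of all genes had a lower log2 ratio. Chek2, the checkpoint kinase that ATM phosphorylates, was at 4.33 RPKM in Nedd4-/- and 5.15 RPKM in Nedd4+/+ cells (log2 ratio -0.21), with an interval of -0.46 to -0.04 that spanned the median. Atr, the kinase that answers to single-stranded DNA, was at 6.90 RPKM in Nedd4-/- and 8.90 RPKM in Nedd4+/+ cells (-0.33). Its obligate partner Atrip was at 5.11 and 6.32 RPKM (-0.26) and its effector kinase Chek1 at 4.65 and 5.87 RPKM (-0.28) in Nedd4-/- and Nedd4+/+ cells. All 3 intervals of this ATR axis overlapped each other and spanned the median of all genes.

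The sensor complex of Mre11a, Rad50 and Nbn held members with different ratios. Rad50, the ATPase that tethers DNA ends, had 4.61 RPKM in Nedd4-/- and 7.29 RPKM in Nedd4+/+ cells, a log2 ratio of -0.56. Its interval of -0.79 to -0.53 lay wholly below the median ratio. Mre11a, the nuclease, was at 7.70 RPKM in Nedd4-/- and 10.3 RPKM in Nedd4+/+ cells (-0.37), and Nbn, which links the complex to ATM, at 7.84 and 9.51 RPKM (-0.25). The interval of Nbn, -0.43 to -0.13, did not overlap that of Rad50, whereas that of Mre11a did by a small margin.

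The chromatin and ubiquitin genes that act after ATM lay near the median. Mdc1, the adaptor that reads phosphorylated histone H2AX, was at 2.14 RPKM in Nedd4-/- and 2.83 RPKM in Nedd4+/+ cells (-0.29). The ubiquitin ligases Rnf8 and Rnf168, which act in turn, were at 4.30 and 4.90 RPKM in Nedd4-/- and at 5.21 and 6.49 RPKM in Nedd4+/+ cells (-0.23 and -0.35). Trp53bp1, the protein that protects ends from resection and favours end joining in switching, was at 3.08 RPKM in Nedd4-/- and 3.91 RPKM in Nedd4+/+ cells (-0.27). Its effector Rif1 was at 14.0 RPKM in Nedd4-/- and 17.3 RPKM in Nedd4+/+ cells (-0.29), and with 3635 and 6121 read pairs its narrow interval of -0.37 to -0.25 lay just above the median ratio. Paxip1, which encodes PTIP, a further partner of Trp53bp1, was at 5.11 and 6.76 RPKM (-0.34) in Nedd4-/- and Nedd4+/+ cells.

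The classical end joining genes covered a wide span of levels. Their log2 ratios ran from -0.44 to -0.22, and from -0.64 to -0.25 without pseudocount. The Ku subunits differed in level, with Xrcc6 (Ku70) at 9.83 RPKM in Nedd4-/- and 11.7 RPKM in Nedd4+/+ cells and Xrcc5 (Ku80) at 4.03 and 5.60 RPKM. Xrcc6 was thus 2.44 times Xrcc5 in Nedd4-/- and 2.08 times in Nedd4+/+ cells, and the counting intervals of their log2 ratios (-0.22 and -0.39) overlapped. Prkdc, the catalytic subunit of the kinase that Ku recruits, was at 4.17 RPKM in Nedd4-/- and 6.04 RPKM in Nedd4+/+ cells (-0.44). Without pseudocount, the scale of the intervals, its ratio was -0.53, with an interval of -0.62 to -0.45 wholly below the median ratio. Dclre1c, the nuclease Artemis, was at 1.87 RPKM in Nedd4-/- and 2.58 RPKM in Nedd4+/+ cells (-0.32). The ligation genes were among the lower of the 36, with Lig4 and Nhej1 the lowest in both libraries. Xrcc4 was at 2.67 RPKM in Nedd4-/- and 3.73 RPKM in Nedd4+/+ cells (-0.37), its ligase Lig4 at 1.03 and 1.61 RPKM (-0.36), and Nhej1, which encodes XLF, had a log2 ratio of -0.24. These low genes depend on the pseudocount, and without it Lig4 was at -0.64 and Nhej1 at -0.46. Nhej1 rested on 31 and 58 read pairs, and its interval of -1.14 to 0.20 could not tell it from either the median or equal levels.

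All 4 genes of alternative end joining had ratios under the all-gene median, and Xrcc1 and Parp1 had the lowest log2 ratios of the 36 with 1 RPKM added. Without pseudocount Xrcc1 was still the lowest (-0.72), but Rad50 (-0.66) and Lig4 (-0.64) were below Parp1 (-0.60). Xrcc1, a scaffold of single-strand break repair that holds ligase III, had 6.20 RPKM in Nedd4-/- and 10.2 RPKM in Nedd4+/+ cells, a log2 ratio of -0.64 with an interval of -0.89 to -0.55. Parp1, whose product recruits XRCC1 to breaks, had a log2 ratio of -0.58 with an interval of -0.66 to -0.54 from 3517 and 7265 read pairs. Both intervals lay wholly below the median ratio, and 8.19% of all genes had a log2 ratio under that of Xrcc1 and 11.7% under that of Parp1. Polq, the polymerase theta gene, was at 5.04 RPKM in Nedd4-/- and 6.97 RPKM in Nedd4+/+ cells (-0.40), and Lig3, the ligase itself, at 5.36 and 7.12 RPKM (-0.35). The intervals of Polq and Lig3 spanned the median, and that of Lig3, -0.54 to -0.28, did not overlap that of its partner Xrcc1.

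Within the BRCA complexes, the large tumour suppressor genes and their partners lay on opposite sides of the median. Brca1, on chromosome 11, had 5.67 RPKM in Nedd4-/- and 8.45 RPKM in Nedd4+/+ cells, a log2 ratio of -0.50 with an interval of -0.68 to -0.47. Brca2, which acts in strand exchange, had 2.70 RPKM in Nedd4-/- and 3.95 RPKM in Nedd4+/+ cells, a log2 ratio of -0.42. Without pseudocount, the scale of the intervals, its ratio was -0.55 with an interval of -0.67 to -0.43. Both lay wholly below the median ratio. Bard1, the RING partner of BRCA1, had 3.58 RPKM in Nedd4-/- and 4.21 RPKM in Nedd4+/+ cells, a log2 ratio of -0.19 with an interval of -0.38 to -0.09. Palb2, which bridges BRCA1 and BRCA2, had 2.87 RPKM in Nedd4-/- and 3.17 RPKM in Nedd4+/+ cells, a log2 ratio of -0.11 with an interval of -0.35 to 0.06. These intervals lay wholly above the median ratio, that of Bard1 by a margin within 0.01, and neither partner's interval overlapped that of its own large subunit. Brca1 was 1.58 times Bard1 in Nedd4-/- and 2.01 times in Nedd4+/+ cells, and Palb2 was 1.06 times Brca2 in Nedd4-/- and 0.803 times in Nedd4+/+ cells.

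The other recombination genes had ratios within counting error of the median of all genes. Rbbp8, which encodes the resection factor CtIP, was at 5.55 RPKM in Nedd4-/- and 7.25 RPKM in Nedd4+/+ cells (-0.33). Rad52, an annealing factor, was at 2.33 and 3.19 RPKM (-0.33), and Rad54l, a DNA motor of strand exchange, at 6.46 and 8.95 RPKM (-0.41) in Nedd4-/- and Nedd4+/+ cells. The RecQ helicase genes Blm and Wrn were at 5.54 and 2.9995 RPKM in Nedd4-/- and at 7.36 and 4.24 RPKM in Nedd4+/+ cells (-0.35 and -0.39). Fancd2, the central switch of the Fanconi crosslink pathway, was at 5.42 RPKM in Nedd4-/- and 6.90 RPKM in Nedd4+/+ cells (-0.30). Rev1, a translesion polymerase outside the 3 groups, was at 4.74 RPKM in Nedd4-/- and 5.47 RPKM in Nedd4+/+ cells (-0.17), with an interval of -0.36 to -0.06 wholly above the median ratio.

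**Figure D3:**
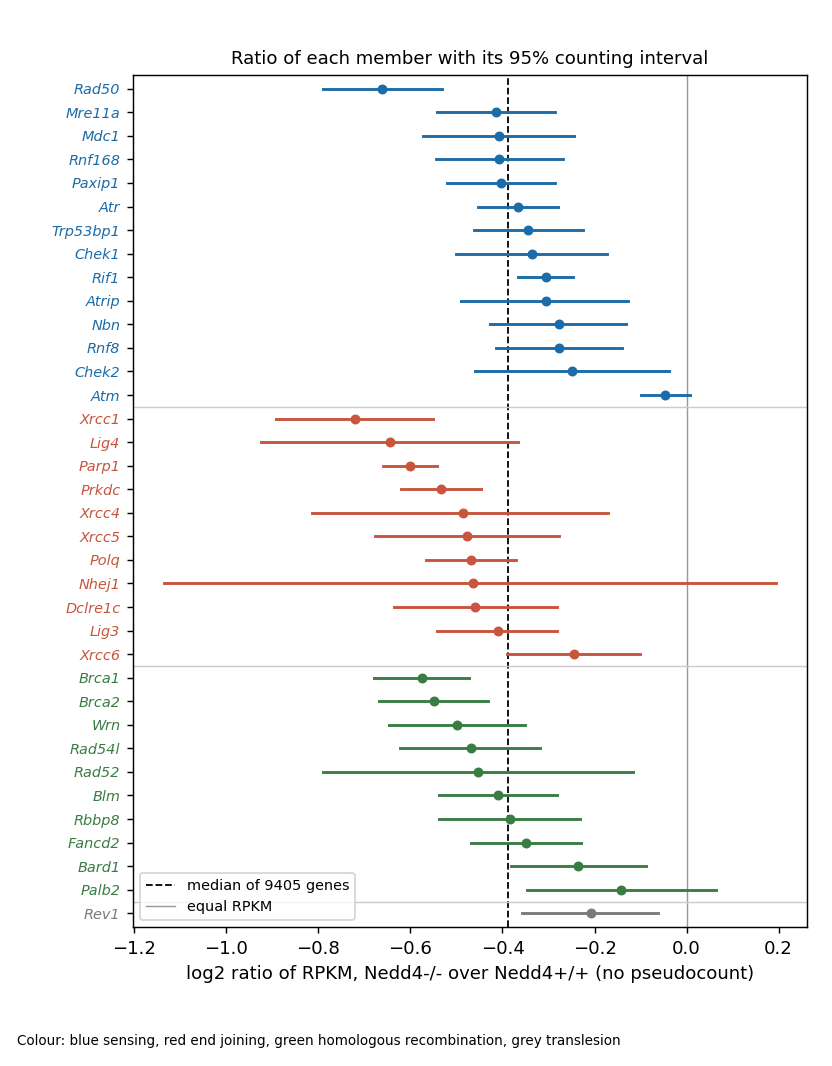
Log2 ratio of RPKM without pseudocount (Nedd4-/- over Nedd4+/+) for each member, with its 95% counting interval as a bar; the dashed line is the median of all genes at -0.39 and the grey line marks equal levels. Rad50, Xrcc1, Parp1, Prkdc, Brca1 and Brca2 lie wholly left of the dashed line, and Atm, Rif1, Bard1, Palb2 and Rev1 wholly right of it.

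Reads of some members may belong to other genes, since no strand setting is given. In the GRCm38 annotation the exons of 8 members are overlapped by another gene over 5% or more of their length. The overlap is 29.1% for Rev1 with Eif5b, at 6.08 RPKM in Nedd4-/- and 6.38 RPKM in Nedd4+/+ cells, and 22.1% for Trp53bp1 with Tubgcp4, at 5.27 and 6.98 RPKM. It is 28.5% for Rnf8, and between 5.05% and 9.08% for Atr, Dclre1c, Xrcc4, Lig3 and Rbbp8. Levels of these 8 are uncertain to that extent, and Rev1 is the only one of them whose interval left the median. Without them the median log2 ratio of the other 28 members was -0.34.

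Further genes of the same pathways, listed by name, were set beside the members. Of 14 cofactors of the ATR checkpoint, 13 could be compared, and their median log2 ratio was -0.26, 8 above and 5 below the median of all genes. Furthest from it were Rad9b, a paralog of the checkpoint clamp (0.08), Rpa3, the small subunit of the single-strand binding protein (0.02), Timeless, a fork protection factor (-0.52), and Rad1, a clamp subunit (-0.16). Of 14 accessory end joining genes, 12 could be compared, with a median of -0.19, 9 above and 3 below, which is the opposite side from the core end joining members. They were led by Poll, a gap-filling polymerase, at 2.43 RPKM in Nedd4-/- and 4.02 RPKM in Nedd4+/+ cells (-0.55), below, and by Polm, its relative (-0.10), and Mad2l2, a partner of Trp53bp1 effectors (-0.14), both above. Without pseudocount 8 of the 12 were above and 4 below. By counting intervals 1 of the 12, Poll, lay wholly below the median, beside 23.1% of all genes. Wholly above it lay 4, beside 18.7% of all genes, and 7 spanned it.

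Accessory recombination genes lay mostly above the median, with 18 of 24 above it with and without pseudocount, but most within counting error of it. Of 27 names of accessory recombination genes, 24 could be compared, and the median log2 ratio was -0.27. By counting intervals 19 of the 24 spanned the median. Wholly above it lay 4, beside 18.7% of all genes, and wholly below it 1, beside 23.1%. Rad51c was at 1.37 RPKM in Nedd4-/- and 1.30 RPKM in Nedd4+/+ cells (0.05). Zswim7 had a log2 ratio of 0.08, while Sfr1 was at 8.85 RPKM in Nedd4-/- and 15.8 RPKM in Nedd4+/+ cells (-0.77). All 13 Fanconi genes could be compared, with a median of -0.26, 9 above and 4 below, but 7 above and 6 below without pseudocount, and 10 of the 13 intervals spanned the median. The furthest were Fancl, the ubiquitin ligase of the pathway (-0.07), Fancg (-0.11), Fan1, a nuclease (-0.14), and Fancb (-0.15).

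Genes of break chromatin lay mostly below the median, and no gene of any pathway list was past 2-fold. Of 21 genes of break chromatin and ubiquitin signalling, 20 could be compared, and the median log2 ratio was -0.42, 14 below and 6 above, or 15 below and 5 above without pseudocount. By counting intervals 12 of the 20 spanned the median. Wholly below it lay 7, beside 23.1% of all genes, and wholly above it 1, beside 18.7%. H2afx, the histone variant phosphorylated at breaks, was at 81.7 RPKM in Nedd4-/- and 139 RPKM in Nedd4+/+ cells (-0.75). Bre and Babam1, subunits of the BRCA1-A deubiquitinase complex, had log2 ratios of -0.78 and -0.61, and the cohesin gene Smc3 -0.63. All 22 genes of S phase and division could be compared, with a median of -0.37, 15 below and 7 above. Without pseudocount this turned to 10 below and 12 above, so the side that holds more of the list depends on the pseudocount. By counting intervals 8 of the 22 lay wholly below the median, beside 23.1% of all genes. Wholly above it lay 5, beside 18.7%, and 9 spanned it. Log2 ratios of the list ran from -0.77 for Mki67 to -0.06 for the cyclin gene Ccnb1. Mki67, a marker of proliferation, was at 38.0 RPKM in Nedd4-/- and 65.3 RPKM in Nedd4+/+ cells. The helicase subunits Mcm3 and Mcm2 were at -0.60 and -0.58. The part of cell division in the ratios of the recombination members was not tested.

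The authors also measured the kb before each gene. Of all 23288 such windows, 75.8% had a higher level in Nedd4-/- than in Nedd4+/+ cells. Upstream of genes under 0.2 RPKM with no annotated gene in the window, the median was 0.103 RPKM in Nedd4-/- and 0.0433 RPKM in Nedd4+/+ cells, and this served as the background of each library. One read pair is worth 0.0328 RPKM in Nedd4-/- and 0.0241 RPKM in Nedd4+/+ windows. The median over the 36 members was 0.466 RPKM in Nedd4-/- and 0.315 RPKM in Nedd4+/+ cells.

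Upstream levels of the members were highest where a coding gene lies close by. In the GRCm38 annotation a coding gene reaches into the kb upstream of 12 members (33.3%), beside 27.2% of 8420 genes in the members' range of levels. Of these 12 windows, 9 had 1 RPKM or more in the Nedd4+/+ library, but only 1 of the other 24 did, that of Paxip1 with 1.09 RPKM in Nedd4-/- and 1.14 RPKM in Nedd4+/+ cells. The highest was upstream of Prkdc, which starts head to head with the replicative helicase gene Mcm4, at 5.89 RPKM in Nedd4-/- and 6.37 RPKM in Nedd4+/+ cells. Mcm4 itself was at 19.6 and 27.5 RPKM. Further head-to-head pairs were Palb2 with Dctn5, at 2.91 RPKM upstream in Nedd4-/- and 3.70 RPKM in Nedd4+/+ cells, Fancd2 with Emc3 at 2.25 and 3.12 RPKM, Mre11a with Ankrd49 at 1.402 and 2.14 RPKM, and Chek2 with Hscb at 1.68 and 2.14 RPKM. Atm shares its start region with Npat, a regulator of histone transcription, and had 1.83 RPKM upstream in Nedd4-/- and 1.91 RPKM in Nedd4+/+ cells.

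Directions were counted apart for windows with and without a coding neighbour. Of the 12 with one, 3 were higher in the Nedd4-/- library, and 45.2% were among genes of the members' range of levels with such a neighbour. Of the 24 without, 16 were higher, and 77.5% were among comparable genes. The median upstream level of those 24 was 0.357 RPKM in Nedd4-/- and 0.173 RPKM in Nedd4+/+ cells, a difference of the same kind as in windows of genes in that range without a coding neighbour, at 0.350 and 0.197 RPKM. Upstream log2 ratios were taken with 0.1 RPKM added, where the mean reached 0.2 RPKM, which 30 members passed. Of these, 6 had an upstream level up by 2-fold or more in Nedd4-/- cells, beside 19.8% of 11837 windows, and 0 had one down by 2-fold or more, beside 0.794%. The 6 were upstream of Dclre1c, Blm, Rif1, Rnf8, Mdc1 and Rad52, the widest that of Dclre1c at 0.585 RPKM in Nedd4-/- and 0.108 RPKM in Nedd4+/+ cells (1.72, interval 1.01 to 4.64). With so few reads, intervals were wide. Upstream intervals were taken without pseudocount, so they are on another scale than the upstream log2 ratios.

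Brca1 was the only 1 of the 12 members with a coding neighbour whose upstream interval lay wholly above equal levels. Among members without one, the upstream intervals of Mdc1, Rnf8, Rif1, Xrcc5, Dclre1c and Blm also did. Over all windows that no gene touches, the median upstream log2 ratio was 0.63 with 0.1 RPKM added. Ratios above 0 are thus usual for such windows and not particular to these members. The Brca1 window, shared with the autophagy receptor gene Nbr1, was at 1.63 RPKM in Nedd4-/- and 1.03 RPKM in Nedd4+/+ cells. Its log2 ratio was 0.62 with 0.1 RPKM added, and its interval without pseudocount was 0.05 to 1.29. Both genes were lower in the Nedd4-/- library, Nbr1 at 5.46 RPKM against 9.45 RPKM in Nedd4+/+ cells (-0.69) and Brca1 at -0.50. The intervals of the windows upstream of Mre11a, Xrcc4 and Fancd2 lay below 0, at -1.16 to -0.06, -1.37 to -0.05 and -0.91 to -0.04. The share of all windows whose interval leaves 0 was not counted, so these upstream intervals have no background share beside them.

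**Figure D4:**
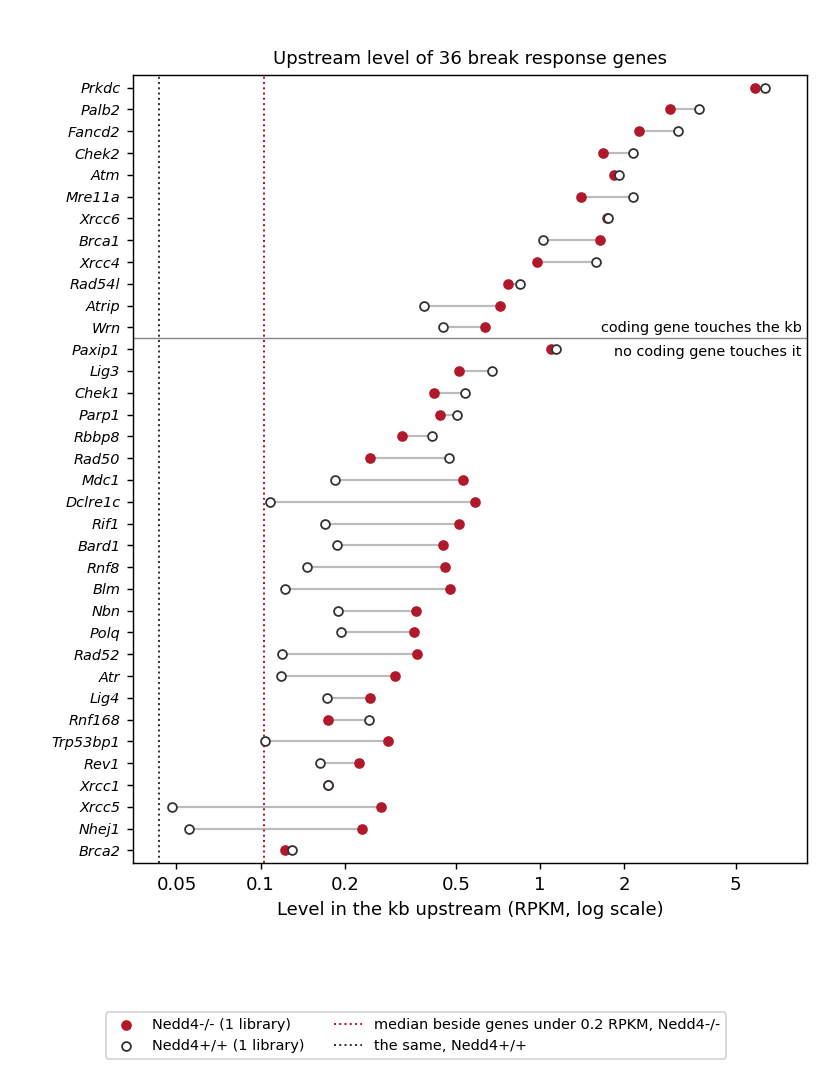
Level in the kb upstream of each member in RPKM on a log axis, with filled points for the Nedd4-/- and open points for the Nedd4+/+ library; dotted lines are the medians beside genes under 0.2 RPKM, 0.103 RPKM in Nedd4-/- and 0.0433 RPKM in Nedd4+/+ cells. Members that a coding gene neighbours, above the horizontal line, reach 5.89 and 6.37 RPKM at Prkdc, and most of the others lie under 1 RPKM with the filled point to the right.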

How the data were processed

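The labels give 1 Nedd4-/- and 1 Nedd4+/+ sample of rRNA-depleted total RNA. Per the submitters' processing notes the tools were TopHat and Cufflinks and the build mm9, listed without version or role. The authors deposited RPKM per gene, per the file headers. Their second deposited column, named for the upstream kb, is a ratio: from its values, the window's level over RPKM plus 0.0001. Multiplying back gave whole bases, within 0.05, in 100% of 20742 low windows of the Nedd4-/- and 99.99% of 20097 of the Nedd4+/+ library. The most common counts were multiples of 101 nt, taken as read length, and depth came to 6.17 gigabases in the Nedd4-/- and 8.40 gigabases in the Nedd4+/+ library. Read pairs rest on GENCODE M21 transcript lengths (22622 genes matched), which may differ from the authors', so intervals are approximate. Software was Python 3.11.15, scipy 1.17.1 and pandas 2.3.3.

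Gene ratios added 1 RPKM and used genes whose mean reached 1 RPKM, and no p-value was computed. Alternatives changed the pseudocount, minimum, scaling and grouping. The members and lists were chosen with earlier results of these data known. Named are Nedd4, all 36 members, sex-linked genes, markers, neighbours, and up to 4 genes per pathway list furthest from the median; some of these are not reported here. Motifs were chosen after the gene values were seen.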

Additional observations from a re-analysis of the deposited data

How the results depend on the processing

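Gene results were recomputed under 9 alternatives, 8 of them set at the start and 1, leaving out the 8 members with overlapped exons, chosen after seeing the data, as were ratios without pseudocount for each list and the all-gene median over the members' range of levels, which was also -0.31. No member was past 2-fold in any. Subtracting the median of all genes gave medians of -0.0186 for all members, 0.0279 for sensing, -0.0562 for end joining and -0.0299 for homologous recombination, and -1.23 for Nedd4. Scaling to the upper quartile gave 0.00397, 0.0589, -0.0523, -0.0125 and -1.22, beside 0.0198 over all genes, so the members stayed below and the sensing genes above the all-gene median, and end joining had the lowest group median under both. With 0.1 RPKM added the values were -0.40, -0.33, -0.47, -0.42 and -1.91, and with 0.01 RPKM -0.41, -0.34, -0.48, -0.43 and -1.95. With a minimum of 5 RPKM the end joining median was -0.42 over its 6 members, beside -0.38 over all genes. The medians of all members (-0.34), sensing (-0.31) and homologous recombination (-0.35) then lay above that of all genes. All members and homologous recombination thus changed side. The number of members below the median of all genes was 7 of 22 at that minimum and 36 of 36 with no minimum, where the median of 23199 genes was 0.02, and 21 under the other pseudocounts and upper quartile scaling. Moving the MRN genes or the Trp53bp1 axis to other groups changed no group's side of the median. Of 144 single member values, 67 moved beyond their counting half-width, 65 of them under the scalings. The members' upstream median log2 ratio was -0.03, beside 0.41 over all windows, but 0.63 over the 13 windows that no gene touches, beside 0.63 over all such windows. It was -0.04 beside 0.53 with 0.01 RPKM added, and 0.16 beside 0.45 with no minimum. The single library per genotype, low upstream counts and short transcripts such as Nhej1 limit precision. No paired analysis was possible because each genotype has 1 library.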
